A study of Macaca mulatta with 2 samples.

Results

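Expression of 10 genes that build the elastic fibre was examined in RNA-seq of the macaque optic nerve. The genes were *ELN*, *FBN1*, *FBN2*, *FBLN1*, *FBLN2*, *FBLN5*, *EMILIN1*, *MFAP4*, *MFAP5* and *LOX*. They were chosen by symbol, for what their proteins do and not for their levels, and all 10 of 10 were found among the 16684 genes of the table. Optic nerves of wild-type, untreated rhesus macaques (*Macaca mulatta*) gave total RNA for 2 libraries, named Rep1 and Rep2, of 1 condition. The methods name a 12-year-old male as the donor, whereas the deposited design text speaks of 2 animals, so whether the libraries are 2 nerves of 1 animal or nerves of 2 animals is not settled, and their spread may be partly technical. The nerves were discarded tissue from eyes collected after death, and their RNA was sequenced in bulk. It can therefore come from glia, vessels and connective tissue together. Whether the sheath was kept is not given in the sources used here. Since there is 1 condition, no groups could be compared; the smallest two-sided p of an exact sign test over 2 libraries is 0.5, so levels and their spread are given without p-values.

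An elastic fibre has a core of cross-linked elastin laid down on a scaffold of fibrillin microfibrils. *ELN* encodes tropoelastin, the soluble precursor of the core, and *FBN1* and *FBN2* encode the fibrillins of the scaffold. Microfibril-associated proteins and fibulins bring both together, EMILIN-1 sits at their interface, and lysyl oxidase joins lysines of neighbouring tropoelastin molecules into a durable network. In the optic nerve such fibres are known from the lamina cribrosa, the plates through which axons leave the eye, from the dural and pial sheaths and from vessel walls, and they are of interest in glaucoma because they let this tissue recoil after pressure.

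The coding sequences show the features by which these proteins cross-link or attach to cells, and a few stretches are given because they mark these roles. They were read from RefSeq transcripts of Mmul_10, using for each gene the transcript with the longest coding sequence, and codons are counted from 1 at the start codon. In *ELN*, 11 positions encode a lysine, 2 or more alanines and a second lysine, the substrate of lysyl oxidase, and the first of these is in capitals. In the other stretches the capitals mark the codons for arginine, glycine and aspartate (RGD), the tripeptide that integrins bind.

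ELN, codons 104 to 107, exon 6 of 36, chr3:46407589-46407600, plus strand: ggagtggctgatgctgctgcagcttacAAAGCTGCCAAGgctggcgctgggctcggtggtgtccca
MFAP4, codons 34 to 36, exon 2 of 6, chr16:18878805-18878813, minus strand: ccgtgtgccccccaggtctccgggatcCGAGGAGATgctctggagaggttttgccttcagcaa
FBLN5, codons 71 to 73, exon 4 of 11, chr7:154083532-154083540, minus strand: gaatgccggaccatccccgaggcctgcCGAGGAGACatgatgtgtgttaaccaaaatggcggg
MFAP5, codons 30 to 32, split over exons 3 and 4 of 10, chr11:11094892-11099860, plus strand: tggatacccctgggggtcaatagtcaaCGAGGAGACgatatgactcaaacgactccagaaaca
FBN1, codons 1541 to 1543, exon 38 of 66, chr7:24885544-24885552, minus strand: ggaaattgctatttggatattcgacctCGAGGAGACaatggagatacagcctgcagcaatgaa
FBN2, codons 1586 to 1588, exon 37 of 65, chr6:125816365-125816373, minus strand: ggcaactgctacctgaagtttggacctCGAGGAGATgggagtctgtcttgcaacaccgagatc

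The RGD codons of *FBN1* and the shown ones of *FBN2* lie in windows that share 34 of 63 bases, and *FBN2* holds 2 RGD triplets in all. *FBLN1* also encodes 1 RGD, whereas *ELN*, *FBLN2*, *EMILIN1* and *LOX* encode none. Glycine, alanine, valine and proline make up 77.0% of the residues encoded by *ELN*, against 21.8% to 36.5% in the other 9 genes. Cysteine takes 12.6% of the residues in *FBN1* and 12.5% in *FBN2*, as disulphide-rich repeats fill both proteins, and 0.251% in *ELN*. The fibrillins were identical at 69.8% of 2846 aligned residues, and *FBLN1* and *FBLN2* at 48.2% of 679.

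Depth differed greatly between the libraries and bears on each value below. The table holds TPM, in which each count is divided by gene length and scaled to 1000000 per library, and read totals are not in it. From the ratios of the values, a read in Rep1 added 17.2 times as many TPM as a read of the same gene in Rep2, and the smallest whole read numbers that give a gene's ratio are quoted here as lower bounds. Of all genes, 38.5% were listed at 0 in Rep1 and 12.5% in Rep2. Photoreceptor markers summed to 3829 TPM in Rep1 and 5.79 TPM in Rep2, 5 of the 8 being at least 2-fold higher in Rep1, with *GUCA1A* listed at 0 in Rep1 and *CRX* listed at 0 in Rep2. Of 38 markers of nerve and vessel cells, 33 were at least 2-fold lower in Rep1 and 0 higher, beside 51.3% and 14.8% of the 14693 genes above 0 in either library. The part of these shifts in the results below was not tested.

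*MFAP4*, *FBLN1*, *MFAP5* and *FBLN5* made up nearly all of the summed TPM of the 10 genes in both libraries. The 10 genes together took 405 TPM in Rep1 and 2987 TPM in Rep2, a mean of 1696 ± 1826 TPM (SD, n = 2). The 4 leading genes held 96.6% of this sum in Rep1 and 93.6% in Rep2, and they stood at ranks 1 to 4 in each library. Transcripts of *ELN*, of the fibrillins and of *LOX* were thus minor in amount beside those of the 4 leading genes. So were those of *FBLN2* and *EMILIN1*, whose products also associate with the fibre.

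**Figure D1:**
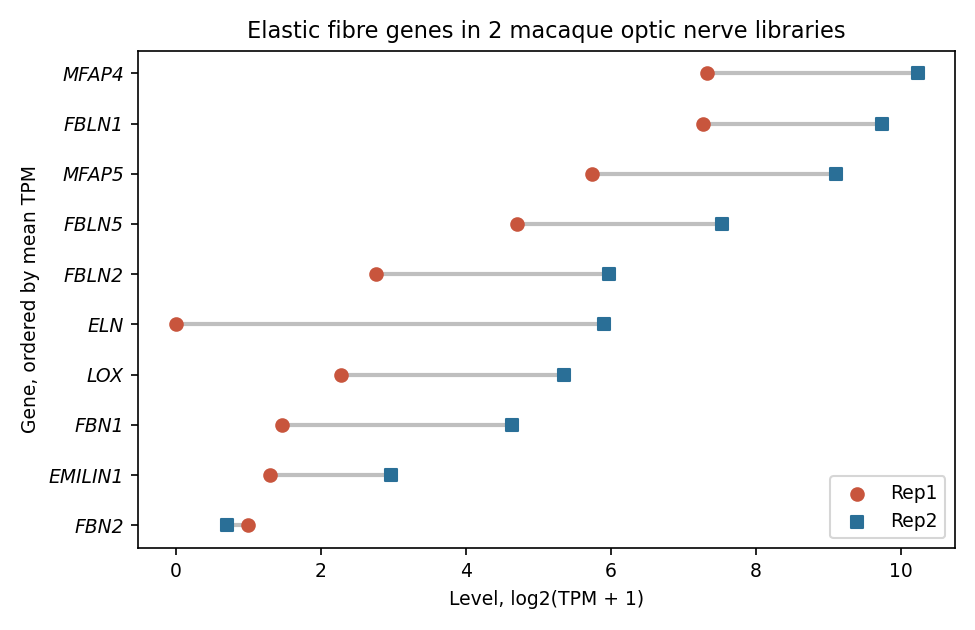
Level of each of the 10 genes on the log2(TPM + 1) scale (horizontal axis), with a circle for Rep1 and a square for Rep2 joined by a line, ordered by mean TPM. Rep2 is higher in 9 genes, from MFAP4 at 1202 TPM to EMILIN1 at 6.83 TPM, ELN is at 0 in Rep1, and FBN2 is the gene with Rep1 above Rep2.

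*MFAP4*, whose product binds both tropoelastin and fibrillin, had 160 TPM in Rep1 against 1202 TPM in Rep2, from at least 101 and 13053 reads. Its mean of 681 ± 737 TPM (SD, n = 2) ranked it at percentile 98.8 among the 14693 genes detected in either library. It was the highest of the 10 genes in both libraries. *MFAP4* lies on chromosome 16 from 18875491 to 18879289 on the minus strand, where 103 of its 1983 exonic bases fall in the span of *MAPK7* on the opposite strand. *MAPK7* itself had 5.37 TPM in Rep1 against 5.39 TPM in Rep2, far below *MFAP4*. Whether reads were assigned by strand is not given in the sources used here.

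*MFAP5*, which encodes a small glycoprotein carried on microfibrils, had 52.3 TPM in Rep1 against 550 TPM in Rep2, from at least 31 and 5596 reads. The mean was 301 ± 352 TPM (SD, n = 2), at percentile 96.6. The gene lies on chromosome 11 from 11092878 to 11109956 on the plus strand and shares 36 exonic bases with an annotated pseudogene on the other strand. Within a library, *MFAP5* stood at 0.328 times the level of *MFAP4* in Rep1 and 0.458 times in Rep2, so the ratio of the pair moved far less than either level.

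*FBLN1*, *FBLN2* and *FBLN5*, the fibulins among the 10 genes, took 45.6% of their summed TPM in Rep1 and 37.0% in Rep2. Fibulins outside the 10 genes, such as *EFEMP1* and *EFEMP2*, are not part of these shares. *FBLN1*, the founding member, found in elastic fibres and basement membranes, had 154 TPM in Rep1 against 858 TPM in Rep2, from at least 89 and 8538 reads. Its mean was 506 ± 498 TPM (SD, n = 2), at percentile 98.3, and it lies on chromosome 10 from 5899073 to 5997600 on the minus strand. Of the 4 leading genes *FBLN1* differed least between the libraries, by 5.58-fold. *FBLN5*, whose product tethers tropoelastin to microfibrils and to cells, had 25.2 TPM in Rep1 against 185 TPM in Rep2, from at least 23 and 2894 reads. That gave 105 ± 113 TPM (SD, n = 2), at percentile 89.5, for a gene on chromosome 7 from 154013267 to 154094084 on the minus strand. The study also used *Fbln5*, by qPCR of mouse retina, as a marker of astrocyte reactivity. In the macaque nerve *FBLN5* stood at 0.0383 times the level of *GFAP*, the astrocyte intermediate filament, in Rep1 and 0.0427 times in Rep2. In bulk RNA this ratio does not tell which cells held *FBLN5* and is no measure of reactivity. *FBLN2*, a larger fibulin of vessel walls and sheaths, was lower, with 5.76 TPM in Rep1 against 61.8 TPM in Rep2, from at least 13 and 2396 reads. It lies on chromosome 2 from 144947422 to 145038256 on the plus strand, and its mean was 33.8 ± 39.6 TPM (SD, n = 2), at percentile 73.6.

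The scaffold and the core gave low or uneven values. *FBN1*, the main fibrillin of adult tissue, had 1.77 TPM in Rep1 against 24.0 TPM in Rep2, with a mean of 12.9 ± 15.7 TPM (SD, n = 2) at percentile 55.5. Its value in Rep1 rested on at least 4 reads and that in Rep2 on at least 929. The gene lies on chromosome 7 from 24826757 to 25063635 on the minus strand, and a noncoding gene on the plus strand spans 2199 of its 10133 exonic bases. *FBN2*, the fibrillin known chiefly from developing tissue, had 0.999 TPM in Rep1 against 0.640 TPM in Rep2, from at least 1 and 11 reads. It was the lowest of the 10 genes in Rep2 and the single one with the higher value in Rep1, a direction that can rest on 1 read there. *FBN2* lies on chromosome 6 from 125768027 to 126038130 on the minus strand. *FBN1* exceeded *FBN2* by 1.78-fold in Rep1 and 37.5-fold in Rep2, so the libraries had the same order but differed widely in the ratio.

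*ELN* had 59.2 TPM in Rep2 but was listed at 0 in Rep1, so neither a mean with SD nor a fold is given. In Rep2 it stood at percentile 81.9, close to *FBLN2* and at 2.47 times the level of *FBN1*. Among the 200 genes nearest to *ELN* in Rep2 level, 3.0% were also listed at 0 in Rep1, against 71.5% of those nearest to *FBN2*. A value of 0 was therefore uncommon at the level *ELN* had in Rep2. The gene lies on chromosome 3 from 46392834 to 46437551 on the plus strand, with 36 exons in the transcript used and 7 annotated transcripts. A short stretch of its coding sequence is shown above.

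*EMILIN1*, which encodes the glycoprotein of the elastin and microfibril interface, had 1.47 TPM in Rep1 against 6.83 TPM in Rep2, from at least 4 and 319 reads. The mean was 4.15 ± 3.79 TPM (SD, n = 2), at percentile 36.4, or 20.5 when genes whose mean was under 1 TPM were left out of the ranking. Within a library *EMILIN1* stood at percentile 39.6 in Rep1 and 40.7 in Rep2, both above that of its mean. The gene lies on chromosome 13 from 81881152 to 81888984 on the minus strand. *LOX*, the cross-linking enzyme, had 3.84 TPM in Rep1 against 40.0 TPM in Rep2, from at least 6 and 1075 reads. With a mean of 21.9 ± 25.6 TPM (SD, n = 2) it stood at percentile 65.8, and it lies on chromosome 6 from 119610517 to 119625701 on the minus strand. *LOX* was above *FBN1* and *EMILIN1* in both libraries.

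The order of the genes was largely shared by the libraries although the levels were not. Of 45 pairs of genes, 41 stood in the same order in Rep1 and Rep2, and the remaining 4 pairs all involve *ELN*, which was listed at 0 in Rep1 and above *LOX*, *FBN1*, *EMILIN1* and *FBN2* in Rep2. Pairs of other genes were not counted, so whether 41 of 45 is more than other genes give is not known. In Rep1 the order of *FBN1*, *EMILIN1* and *FBN2* can rest on as few as 4, 4 and 1 reads. By mean TPM the order was *MFAP4*, *FBLN1*, *MFAP5*, *FBLN5*, *FBLN2*, *ELN*, *LOX*, *FBN1*, *EMILIN1* and *FBN2*. The difference between neighbours was taken within each library on the log2(TPM + 1) scale and compared with its SD over the libraries. *FBLN1* was above *MFAP5* by 1.09 ± 0.63, *MFAP5* above *FBLN5* by 1.30 ± 0.38 and *FBLN5* above *FBLN2* by 1.76 ± 0.28 (SD, n = 2). *LOX* was above *FBN1* by 0.76 ± 0.061 (SD, n = 2), the smallest SD of the 9 steps. In Rep1 this step can rest on as few as 6 reads of *LOX* and 4 of *FBN1*. Its small SD over 2 values therefore does not show that the step is steady. The other 5 of the 9 steps were within 1 SD. *MFAP4* and *FBLN1* differed by 0.27 ± 0.30, *FBN1* and *EMILIN1* by 0.92 ± 1.07, and *EMILIN1* and *FBN2* by 1.28 ± 1.38 (SD, n = 2). Both steps next to *ELN* were also within 1 SD, which rests on its listed 0.

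**Figure D2:**
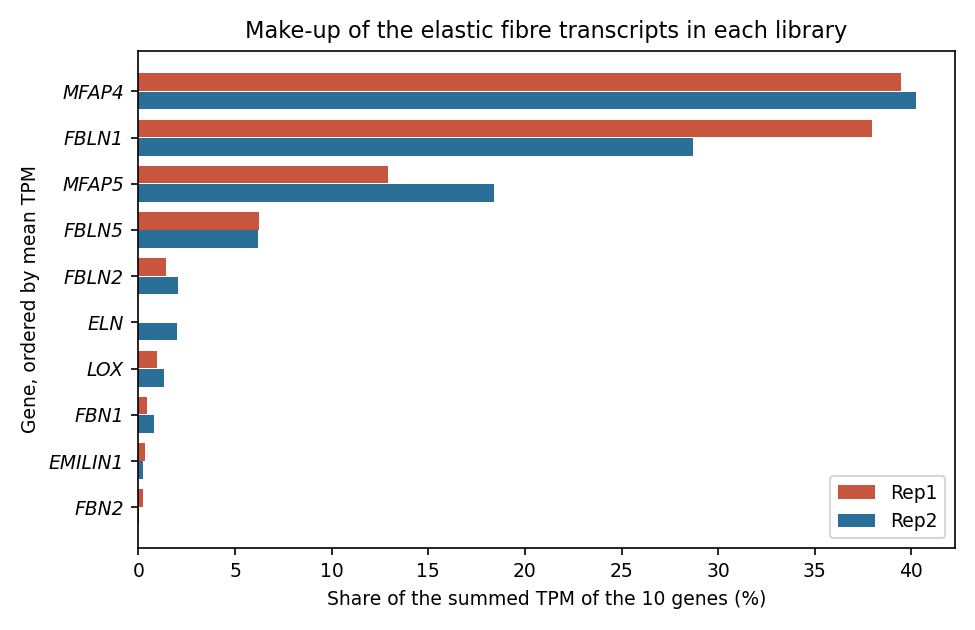
Share of the summed TPM of the 10 genes (horizontal axis, percent, from 0) that each gene took in Rep1 and Rep2. MFAP4 took 39.5% and 40.2%, FBLN5 6.23% and 6.19%, and FBLN1 and MFAP5 show the widest gaps.

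Shares of the summed elastic fibre transcripts leave out how much each library held in all. *MFAP4* took 39.5% of the sum in Rep1 and 40.2% in Rep2, and *FBLN5* took 6.23% and 6.19%. Both shares thus differed by under 1 percentage point although the levels behind them differed 7.52-fold and 7.32-fold. *FBLN1* took 38.0% in Rep1 and 28.7% in Rep2, whereas *MFAP5* took 12.9% and 18.4%. Shares add up to a fixed total, so a larger share of *FBLN1* in Rep1 requires smaller ones elsewhere. Among the smaller shares in Rep1, that of *MFAP5* differed most. *FBLN2*, *LOX* and *FBN1* each took under 3% in both libraries and had the smaller share in Rep1, and *EMILIN1* and *FBN2* had the larger share there.

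Between the libraries, which carry the same condition, 9 of the 10 genes were at least 2-fold lower in Rep1 on the log2(TPM + 1) scale and 0 were at least 2-fold higher. This is read against a general shift, since 51.3% of the 14693 genes above 0 were at least 2-fold lower in Rep1 and 14.8% at least 2-fold higher, or 33.8% and 23.7% with median-of-ratios scaling. The median difference of the 10 genes, Rep1 minus Rep2, was -2.99, or -2.90 without *ELN*, beside -1.07 over all genes. The values without *ELN* ran from -3.37 in *MFAP5* through -3.22 in *FBLN2*, -3.17 in *FBN1*, -3.08 in *LOX*, -2.90 in *MFAP4*, -2.82 in *FBLN5*, -2.47 in *FBLN1* and -1.66 in *EMILIN1* to 0.29 in *FBN2*. Median-of-ratios scaling takes out a log2 offset of -1.19 (Rep1 relative to Rep2), found from genes above 0 in both libraries. It left 8 genes at least 2-fold lower in Rep1, with *EMILIN1* at -0.78, and a median of -1.87. The median over all genes above 0 in either library was then -0.38. In bulk tissue, fewer cells of a type and less RNA per cell cannot be told apart.

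Markers of the cells known to make elastic fibres were also lower in Rep1. This was not particular to them, as oligodendrocyte markers had a median log2 difference of -2.43 and astrocyte markers one of -2.17. Of the 7 fibroblast markers, 7 were at least 2-fold lower in Rep1, with a median log2 difference of -2.93 and sums of 1648 TPM in Rep1 and 15296 TPM in Rep2, a ratio of 9.28. *DCN*, which encodes the proteoglycan decorin of collagenous matrix, was at 995 and 10504 TPM, and *COL1A1*, a chain of type I collagen, at 138 and 943 TPM. *COL1A2*, its partner chain, was at 320 and 2440 TPM and *LUM*, the proteoglycan lumican, at 63.7 and 826 TPM. All 7 smooth muscle and pericyte markers were also at least 2-fold lower in Rep1, with sums of 246 and 1296 TPM, the median being -2.41. None of these 14 markers was listed at 0, and their part in the lower elastic fibre values was not tested.

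Set against the fibroblast markers of the same library, the elastic fibre genes differed less. Their sum came to 24.6% of the fibroblast sum in Rep1 and 19.5% in Rep2, a mean of 22.0% ± 3.6 (SD, n = 2). When Rep1 was scaled so that its fibroblast sum equalled that of Rep2, 8 of the 10 genes differed by under 2-fold, from -0.52 in *FBN1* to 0.90 in *EMILIN1*, the median being 0.069. *ELN*, whose listed 0 in Rep1 no factor can raise, and *FBN2*, at 2.65, were the exceptions. Over all 14693 genes the same scaling left 32.9% under 2-fold, 19.1% at least 2-fold lower and 47.9% higher in Rep1, with a median of 0.86. *DCN* held 60.4% of the fibroblast sum in Rep1 and 68.7% in Rep2. The 3 scalings that follow were chosen after seeing the data. Without *DCN*, 8 of the 10 genes were again under 2-fold, beside 36.5% of all genes, with 20.4% of all genes lower and 43.2% higher in Rep1. With Rep1 scaled to the smooth muscle and pericyte markers 6 genes were under 2-fold, 3 lower and *FBN2* higher, beside 40.2% of all genes under 2-fold, 23.2% lower and 36.7% higher. With Rep1 scaled to the astrocyte markers, whose sum differed 6.48-fold between the libraries against 7.38-fold for the elastic fibre genes and 9.28-fold for the fibroblast markers, 8 genes were under 2-fold, beside 38.0% of all genes, with 21.4% lower and 40.6% higher. Scaling to either the fibroblast or the astrocyte markers thus left the same number of these genes under 2-fold.

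**Figure D3:**
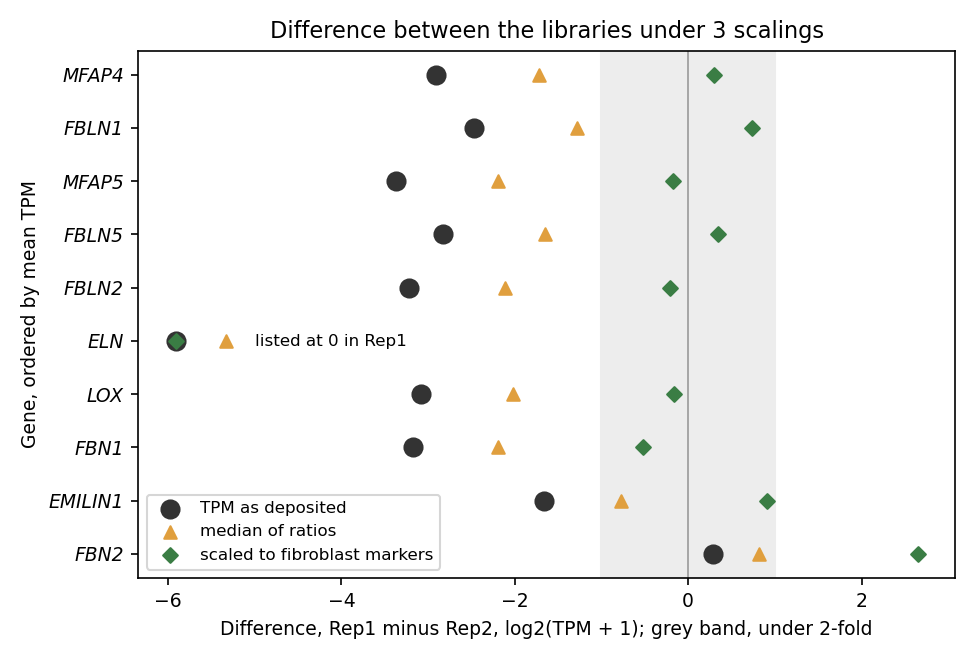
Difference between the libraries for each gene, Rep1 minus Rep2 on the log2(TPM + 1) scale, from TPM as deposited (circles), after the median of ratios (triangles) and with Rep1 scaled to the fibroblast markers (diamonds). The grey band marks differences under 2-fold, where 8 diamonds lie. ELN is listed at 0 in Rep1, which no factor can raise, so its place far to the left under each scaling is not a test.

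Other genes of the pathway were described as lists, of which 44 genes were found in the table and 40 were above 0. Of these 40, 29 were at least 2-fold lower in Rep1, 4 at least 2-fold higher and 7 between, counts to be read, like those of each list below, beside the 51.3% and 14.8% of all genes. Among 17 microfibril and elastin-binding partners, 14 were at least 2-fold lower in Rep1 and 0 higher, with a median log2 difference of -2.10. *EFEMP1*, a fibulin of the retina and of loose connective tissue, was the highest of them at 359 and 1530 TPM in Rep1 and Rep2. It stood above *FBLN1* by 2.34-fold in Rep1 and 1.78-fold in Rep2. *EFEMP2*, the fibulin that helps lysyl oxidase reach tropoelastin, was at 90.5 and 311 TPM. *LTBP4*, which binds latent TGF-beta and promotes elastin assembly, had 9.97 TPM in Rep1 against 224 TPM in Rep2, and *MFAP2*, the sister of *MFAP5*, at 13.2 and 140 TPM. *LTBP1*, *LTBP2* and *LTBP3*, which hold latent growth factor or bind microfibrils, lay between 7.59 and 12.6 TPM in Rep1 and between 38.1 and 67.7 TPM in Rep2. *EMILIN2*, a relative of *EMILIN1*, was listed at 0 in Rep1 and at 61.2 TPM in Rep2, and *FBN3*, the third fibrillin gene, was listed at 0 in Rep1 and at 2.03 TPM in Rep2. The other 4 partners listed at 0 in Rep1 were *MMRN2*, at 5.89 TPM in Rep2, *MMRN1*, at 1.33 TPM, *ADAMTSL2*, at 0.438 TPM, and *EMILIN3*, at 0.424 TPM.

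Among the cross-linking enzymes *LOXL1* exceeded *LOX* in both libraries. *LOXL1*, a lysyl oxidase-like enzyme of elastic fibre upkeep whose variants are linked to exfoliation glaucoma, had 18.7 TPM in Rep1 against 155 TPM in Rep2, from at least 21 and 3001 reads. It was 4.87 times the level of *LOX* in Rep1 and 3.88 times in Rep2. *LOXL3*, another family member, was at 1.35 and 5.95 TPM. *LOXL2* was listed at 0 in Rep1 and at 5.51 TPM in Rep2. *BMP1*, the protease that cuts the propeptide from lysyl oxidase, was at 7.11 and 11.7 TPM, a difference under 2-fold. *ATP7A*, the copper transporter that supplies these copper enzymes, had 6.58 TPM in Rep1 against 0.759 TPM in Rep2 and so went the other way. *TLL1*, a relative of *BMP1*, was listed at 0 in both libraries. Of the 6 genes of this list above 0, 3 were at least 2-fold lower in Rep1, 1 higher and 2 between, near the shares of all genes.

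Of 12 elastin-degrading enzymes and inhibitors, 9 were above 0, of which 6 were at least 2-fold lower in Rep1, 2 higher and 1 between. The elastases *ELANE* and *MMP12* and the matrilysin gene *MMP7* were the 3 genes listed at 0 in both libraries. *CTSK*, a cathepsin that can cleave elastin and collagen, was at 104 and 621 TPM in Rep1 and Rep2, and *CTSL*, another cathepsin, at 47.3 and 357 TPM. *TIMP1*, an inhibitor of metalloproteinases, was at 141 and 969 TPM. By contrast *TIMP2*, a second inhibitor, had 180 TPM in Rep1 against 78.2 TPM in Rep2. *MMP14*, a membrane-bound metalloproteinase named here after its values were seen, was also higher in Rep1, at 70.0 against 8.35 TPM.

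Receptors for the fibre showed 6 of 8 genes at least 2-fold lower in Rep1, 1 higher and 1 between. *ITGB1* and *ITGB5*, integrin chains that take part in binding RGD sites, were at 168 and 445 TPM and at 22.5 and 140 TPM in Rep1 and Rep2. *GLB1*, the gene of the elastin-binding splice form of beta-galactosidase, was at 39.6 and 172 TPM, values that do not separate this form from the lysosomal enzyme. *CTSA*, the protective protein of the elastin receptor complex and of lysosomes, was higher in Rep1, at 484 against 223 TPM.

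**Figure D4:**
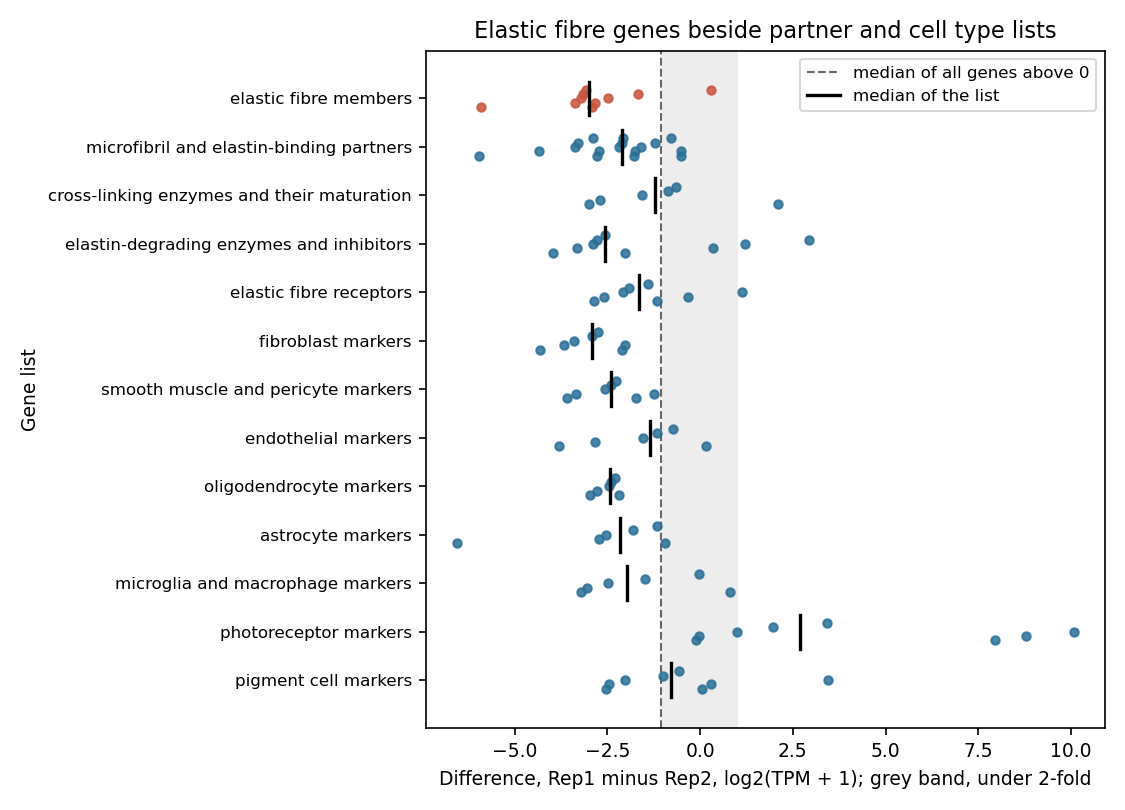
Difference between the libraries for each gene above 0 in each list, Rep1 minus Rep2 on the log2(TPM + 1) scale, with a bar for the median of each list and a dashed line for the median of all genes. The elastic fibre genes have a median of -2.99, the fibroblast markers -2.93, the oligodendrocyte markers -2.43 and the astrocyte markers -2.17. The photoreceptor markers have a median of 2.69, with 6 of 8 genes above 0.

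Glial and endothelial markers had medians below 0, whereas retinal and pigment cell markers gave other pictures. The median log2 difference was -2.43 for the 6 oligodendrocyte markers, -2.17 for the 6 astrocyte markers, -1.98 for the 6 markers of microglia and macrophages and -1.35 for the 6 endothelial markers. The photoreceptor markers had a median of 2.69 and the 8 pigment cell markers one of -0.78. Of these 8, 3 were higher and 5 lower in Rep1, and all 8 summed to 87.3 TPM in Rep1 and 40.7 TPM in Rep2. Most of the sum in Rep1 came from the single gene *RLBP1*, at 76.7 TPM in Rep1 against 6.12 TPM in Rep2. Defining markers of optic nerve tissue were present in both libraries, with *MBP*, a main myelin protein, at 43721 and 199595 TPM.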

How the data were processed

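The authors deposited 1 table of TPM for 16684 genes in 2 optic nerve libraries, each summing to 1000000 TPM. Per the methods and the labels, they built libraries with the SMARTer v4 kit, trimmed reads with Trim Galore 0.6.6, checked quality with FastQC 0.11.9, aligned to Mmul_10 with STAR 2.7.1a and counted per gene with featureCounts 1.5.3. Gene lengths, strand and treatment of multiply mapped reads are not given in the sources used here, so reads shared by paralogs such as the fibrillins may be split. Columns Rep1 and Rep2 match no sample title and were used as replicates of the 1 condition.

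Levels were taken as deposited. Differences used log2(TPM + 1), which understates the change of low genes. Called means at least 2-fold, among genes above 0 in at least 1 library. With the constant of 17.2, 99.9% of 10168 genes gave whole read ratios at a tolerance of 1e-12. The read ratios, the median-of-ratios scaling and the 2-fold limit were tested on simulated data. The changes set there went up and down in equal number, unlike the shift between these libraries. That test therefore cannot show how well the scaling works here. All 16684 symbols matched the RefSeq annotation of Mmul_10, the build the authors name. Coding features were computed from RefSeq transcripts, as no protein table was used here. Python 3.11, numpy 2.4.6, pandas 2.3.3, biopython 1.88 and matplotlib 3.10.9 were used.

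The genes and lists were chosen with earlier results of these data known. Named were the 10 genes, at most the 4 highest of each other list, genes listed at 0 in both libraries, and further microfibril and cross-linking genes; *GUCA1A*, *CRX*, *MMP14* and the overlapping *MAPK7* were named after their values were seen. No gene was named for likeness of pattern, since over 2 libraries any pair of genes has a correlation of 1 or -1.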

Additional observations from a re-analysis of the deposited data

How the results depend on the processing

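No paired analysis was possible because there is a single condition. Under the alternatives other than a single library, 126 values kept their direction and side of the 2-fold limit or stayed within the spread. Another 20 moved, 27 fell under 2-fold, 5 passed it and 11 changed sign. Part of the 126 was fixed in advance, so this count does not measure stability. A geometric mean of 2 values lies within 1 SD of their mean. Scaling a library or changing the pseudocount cannot alter the order within it. The listed 0 of *ELN* stays 0 under each marker scaling. A single library always lies within 1 SD of the mean of 2, so the range of the summed level, 405 to 2987 TPM, says nothing about stability. Scaling Rep1 to the fibroblast markers gave a median of 0.069, with 1 gene at least 2-fold lower and 1 higher in Rep1. There *FBLN1* turned to 0.73, *FBLN5* to 0.34, *EMILIN1* to 0.90 and *MFAP4* to 0.30. Without *DCN* the median was -0.26, with 1 gene lower and 1 higher, and *FBLN1* turned to 0.39, *FBLN5* to 0.0023 and *EMILIN1* to 0.59. Scaling to the smooth muscle and pericyte markers gave -0.73, with 3 genes lower and 1 higher, and *EMILIN1* at 0.16. Scaling to the astrocyte markers gave -0.44, with 1 gene lower and 1 higher, *FBLN1* at 0.22 and *EMILIN1* at 0.43. These turns follow from raising Rep1 by 9.28, 7.33, 5.27 and 6.48 times. Of all genes, 19.1%, 20.4%, 23.2% and 21.4% were then lower and 47.9%, 43.2%, 36.7% and 40.6% higher in Rep1, and after the median of ratios 33.8% and 23.7%. The percentile of *EMILIN1* moved to 20.5 when genes whose mean was under 1 TPM were left out. The few reads of Rep1 limit *FBN1*, *FBN2*, *EMILIN1* and *LOX*, each resting there on possibly 6 reads or fewer, and a listed 0 of *ELN* does not show absence.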

Other observations

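The 4 leading elastic fibre genes had the 4 shortest transcripts of the 10. *MFAP4* has 1956 nt, *FBLN5* 2498 nt, *MFAP5* 2862 nt and *FBLN1* 2967 nt in the RefSeq transcript with the longest coding sequence. *FBN1* and *FBN2*, with 10071 and 10925 nt, were at the other end. Across the 10 genes, which share their libraries and are not independent replicates, the Spearman rho of level and transcript length was -0.818 on the mean and in Rep2 and -0.721 in Rep1. TPM already divides by a gene length, though which length was used is not given in the sources used here, and the part of length in the order of the genes was not tested.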
